A study of Mus musculus with 8 samples.

Results

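The genes described here carry male germ cells from the differentiating spermatogonium into meiosis. They are Kit, Sohlh1, Sohlh2, Dmrt1, Dmrtb1, Stra8, Meioc and Ythdc2, chosen by gene name as 8 of the 54532 genes in the deposited expression table. All 8 had an FPKM above 1 in all 8 libraries, and so passed the filter on low values, an FPKM above 1 in at least 1 library, that 21175 genes passed. FPKM is the number of sequenced fragments scaled by transcript length and by the depth of the library, so levels can be compared between genes.

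The differentiating spermatogonium is marked by the receptor tyrosine kinase KIT, whose ligand comes from the Sertoli cells. The basic helix-loop-helix factors SOHLH1 and SOHLH2 are needed for that step, and the doublesex-related factors DMRT1 and DMRTB1 act in the mitotic germ cell, where DMRT1 holds back meiosis. Retinoic acid then switches on Stra8 in preleptotene cells, STRA8 works with its partner MEIOSIN to turn on meiotic genes, and MEIOC and YTHDC2 bind one another and control RNA as the cell leaves mitosis for a long meiotic prophase.

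RNA was sequenced from spermatocytes of C57BL/6J mice in 8 groups of 1 library each. MFN2 WT mice were labelled Mfn2 loxp/loxp and MFN2 cKO mice Mfn2 loxp/loxp; Stra8-Cre, so the floxed allele was shared by both genotypes. Cells of each genotype were taken at postnatal day (PD) 24 and PD 52 and separated by size under gravity into pachytene (P) and leptotene/zygotene (L/Z) fractions. The groups therefore formed 4 MFN2 cKO and MFN2 WT pairs, 1 for each stage and age.

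The controls were littermates that the study's methods allow to be homozygous or heterozygous for the floxed allele, and the Cre is driven by the promoter of Stra8, which is itself among the genes described. MFN2, the targeted protein, fuses outer mitochondrial membranes. The labels give no number of animals for a library, and no group has a replicate, so p-values measure the spread between pairs of libraries and intervals cover counting error only.

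The libraries held 14340665 to 20379950 reads on genes. Mfn2 was lower in MFN2 cKO in all 4 pairs, at 51.3% and 41.8% of MFN2 WT in P and L/Z at PD 24 and at 80.5% and 49.1% at PD 52, so the P pair at PD 52 showed the smallest loss of the targeted transcript. Over the 4 pairs its difference was −0.87 ± 0.19 (SE, n = 4 pairs, limma adjusted p = 0.275) on the log2(FPKM + 1) scale, which is used for all differences here. The stage labels were only partly matched by stage markers. Of the 7 leptotene and zygotene markers tested, Dmc1 and Gm960 were called higher in L/Z and Spo11, Meiob and Tex101 were called higher in P. Other cell types also moved with the groups. The summed FPKM of 9 Leydig cell markers was 28.9 to 269 in MFN2 WT and 104 to 674 in MFN2 cKO, and that of 6 macrophage markers 4.34 to 29.0 and 18.4 to 126, both higher in MFN2 cKO in each of the 4 pairs. Sertoli cell markers summed to 280 to 688 in P and 22.1 to 227 in L/Z. At PD 24, 6 of 10 spermatid markers were called lower in MFN2 cKO, and 0 of 10 were called at PD 52 by limma or voom, with 0 at an unadjusted p under 0.05. In bulk RNA, fewer cells of a type and less RNA per cell cannot be told apart.

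**Figure D1:**
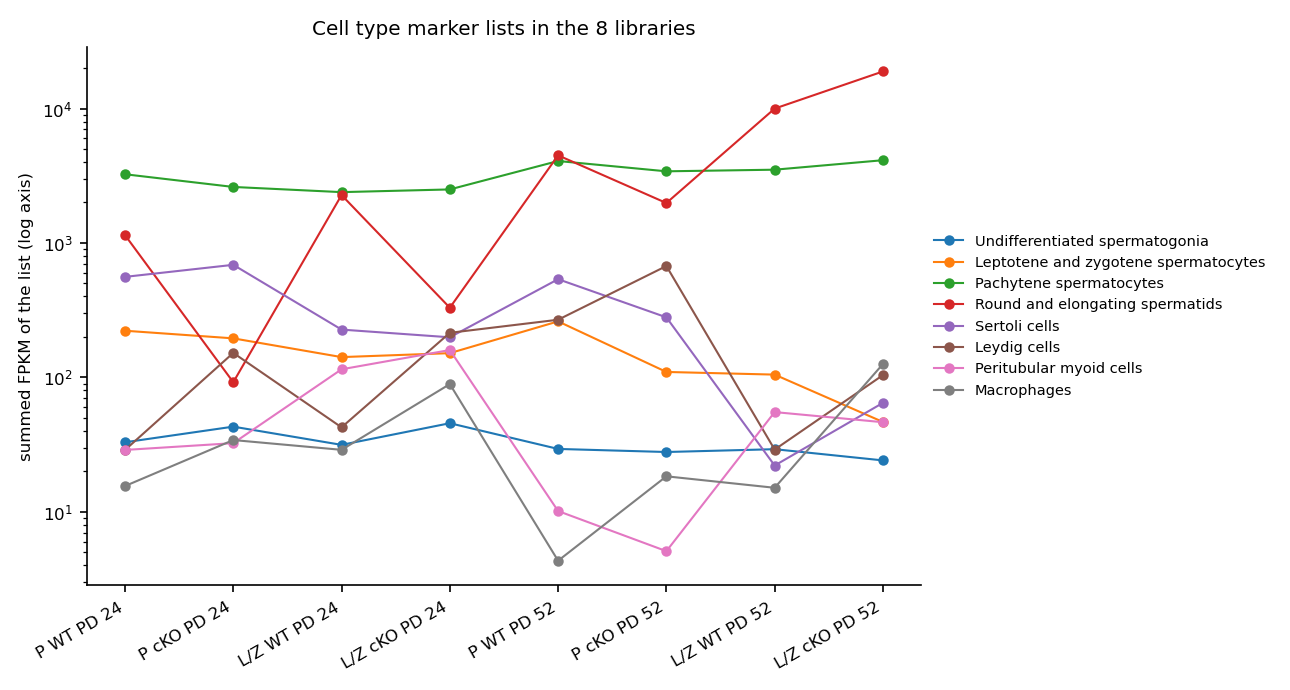
Summed FPKM of the cell type marker lists other than mast cells (log axis) in the 8 libraries, by stage, genotype and postnatal day. Leydig cell and macrophage sums were higher in MFN2 cKO in each of the 4 pairs. Mast cell markers, not drawn, summed to 0.513 at most.

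Of the 8 genes, Dmrt1 had the widest opposite movement at the 2 ages. It encodes the factor that holds back meiosis. It lies at chr19:25505618-25604329 on the plus strand (GRCm38, ENSMUSG00000024837), and its longest annotated transcript has 5 exons. Dmrt1 reached 17.3 FPKM in MFN2 WT and 23.1 in MFN2 cKO of P at PD 24, and 31.2 and 47.0 in L/Z. At PD 52 it was 21.1 in MFN2 WT and 8.37 in MFN2 cKO of P, and 22.0 and 8.44 in L/Z. MFN2 cKO was thus above MFN2 WT in both pairs at PD 24, while the MFN2 cKO libraries at PD 52 were the 2 lowest of the 8. The log2 change was 0.40 (95% counting interval 0.28 to 0.52) in P and 0.58 (0.48 to 0.67) in L/Z at PD 24, then −1.24 (−1.41 to −1.07) and −1.29 (−1.46 to −1.12) at PD 52. The MFN2 cKO level at PD 52 was 39.7% of MFN2 WT in P and 38.3% in L/Z. Across the libraries the highest levels were the L/Z ones at PD 24, and the 2 lowest, MFN2 cKO in P and in L/Z at PD 52, differed from each other by less than counting error.

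Fitted over both stages, the MFN2 cKO effect on Dmrt1 was +0.49 ± 0.20 (SE, n = 2 pairs, limma adjusted p = 0.395) at PD 24 and −1.26 ± 0.20 (n = 2 pairs, adjusted p = 0.130) at PD 52. The difference between the ages was −1.75 ± 0.28 (n = 4 pairs, adjusted p = 0.105), so none of these passed the threshold of 0.05. On the reads recovered from the FPKM, analysed with voom, the effect at PD 52 was −1.32 (adjusted p = 0.0116) and the difference between ages −1.83 (adjusted p = 0.0069), both past it.

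**Figure D2:**
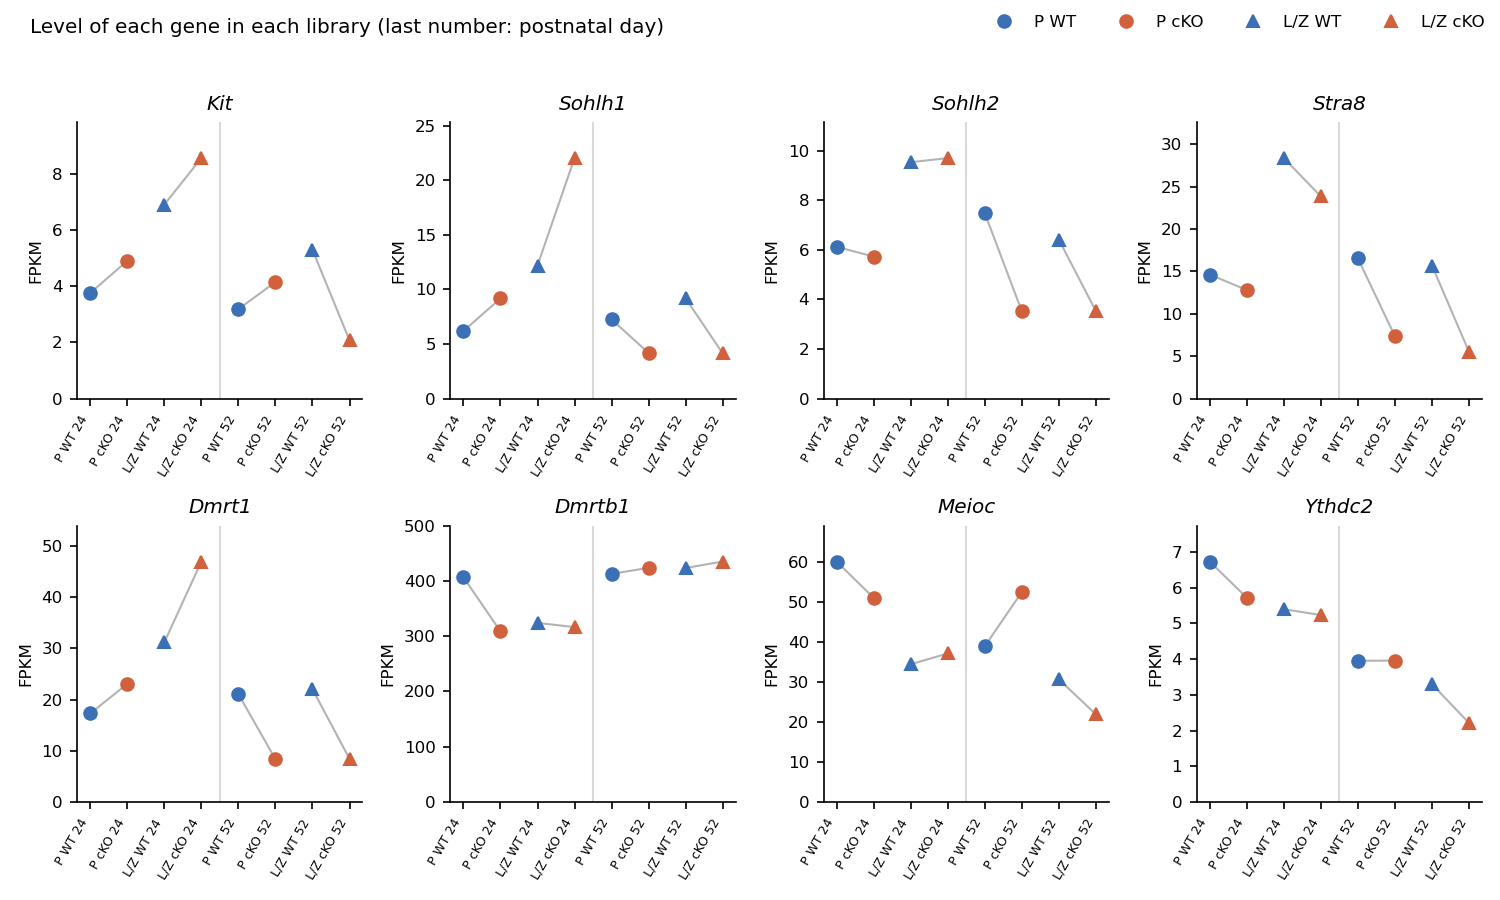
FPKM of each gene in each of the 8 libraries, 1 panel a gene with its own axis from 0. The lowest levels of Dmrt1, Stra8, Sohlh1 and Sohlh2 lie in the 2 MFN2 cKO libraries at PD 52, while Dmrtb1 stays between 309 and 435.

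Dmrtb1, a relative of Dmrt1 that acts later in spermatogonia, behaved otherwise. It lies at chr4:107676290-107684230 on the minus strand and was by far the most abundant of the 8 genes, above 99.8% of all genes in each library. Dmrtb1 stood at 407 and 309 FPKM in MFN2 WT and MFN2 cKO of P at PD 24, and 324 and 316 in L/Z. At PD 52 the same order gave 413, 424, 424 and 435. All 4 libraries at PD 52 were above all 4 at PD 24, and the largest step between genotypes was the P pair at PD 24, at −0.40 (−0.43 to −0.36). The other 3 pairs lay between −0.03 and 0.04.

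Sohlh1 followed Dmrt1 in direction. The gene lies at chr2:25842995-25847248 on the minus strand (ENSMUSG00000059625, 8 exons). Its promoter is shown because E-boxes, the CANNTG elements that helix-loop-helix proteins bind, are frequent in it, with capitals on CACGTG. The window runs from 250 bases before the annotated start to 50 after it (RefSeq, GRCm38.p6, chr2:25847199-25847498, minus strand).

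Sohlh1: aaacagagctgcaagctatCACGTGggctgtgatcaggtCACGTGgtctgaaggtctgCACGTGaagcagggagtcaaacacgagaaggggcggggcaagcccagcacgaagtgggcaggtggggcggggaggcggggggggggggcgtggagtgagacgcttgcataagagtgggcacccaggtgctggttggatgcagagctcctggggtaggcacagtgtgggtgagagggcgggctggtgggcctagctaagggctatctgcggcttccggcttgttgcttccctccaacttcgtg

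CACGTG, which reads the same on both strands, occurred 3 times, at −231, −211 and −192 from the start. Among 32544 promoter windows of this length, 7.17% held it at least once and 0.0891% at least 3 times. CAGGTG, another E-box, occurred at −134 and −70, and the nuclear receptor element AGGTCA overlapped the middle CACGTG by 2 bases. A match of letters is a description of the window and not of binding.

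At PD 24 Sohlh1 had an FPKM of 6.19 in MFN2 WT and 9.18 in MFN2 cKO of P, and of 12.2 and 22.0 in L/Z. At PD 52 the levels were 7.25 and 4.17 in P and 9.17 and 4.14 in L/Z. MFN2 cKO was therefore higher in both pairs at PD 24, at 148% and 181% of MFN2 WT, and lower in both at PD 52, at 57.5% and 45.1%. The 4 log2 changes were 0.50 (0.24 to 0.76), 0.80 (0.61 to 1.00), −0.68 (−1.01 to −0.34) and −0.99 (−1.32 to −0.65). These rest on 78 to 504 reads a library, the fewest of the 8 genes. The fitted effects were +0.65 ± 0.20 at PD 24 (SE, n = 2 pairs, limma adjusted p = 0.237) and −0.83 ± 0.20 at PD 52 (n = 2 pairs, adjusted p = 0.287), with a difference of −1.48 ± 0.29 between the ages (n = 4 pairs, adjusted p = 0.134). With voom the difference was −1.67 (adjusted p = 0.0468).

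Sohlh2, the partner of Sohlh1, moved at PD 52 and hardly at PD 24. It lies at chr3:55182028-55209957 on the plus strand (ENSMUSG00000027794, 11 exons). Its window (RefSeq, GRCm38.p6, chr3:55181794-55182093, plus strand) is set beside that of Sohlh1 because it held a single E-box, in capitals, and no CACGTG.

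Sohlh2: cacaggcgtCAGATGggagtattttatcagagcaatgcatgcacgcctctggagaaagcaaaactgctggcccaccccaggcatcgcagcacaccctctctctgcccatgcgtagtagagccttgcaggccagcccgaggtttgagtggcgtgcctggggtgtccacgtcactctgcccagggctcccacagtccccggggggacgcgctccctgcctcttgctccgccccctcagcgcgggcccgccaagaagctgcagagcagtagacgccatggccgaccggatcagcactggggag

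The E-box, CAGATG, began at −241, and 72.3% of all windows held a CANNTG. CCCCTCAG, a match to CNCCTCAG, the element associated with STRA8 and MEIOSIN, lay at −22 to −15. That element was present in 7.99% of windows on either strand.

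At PD 24 Sohlh2 had an FPKM of 6.12 in MFN2 WT and 5.73 in MFN2 cKO of P, and of 9.54 and 9.71 in L/Z, with counting intervals of the change that held 0 in both pairs. At PD 52 it was 7.49 and 3.53 in P, and 6.42 and 3.53 in L/Z. The MFN2 cKO libraries at PD 52 were the 2 lowest of the 8, at 47.1% and 55.0% of their MFN2 WT partners. The fitted effect at PD 52 was −0.81 ± 0.18 (SE, n = 2 pairs, limma adjusted p = 0.266), and its difference from PD 24 was −0.78 ± 0.26 (n = 4 pairs, adjusted p = 0.309).

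Kit, the receptor, did not move with Sohlh1, Sohlh2 and Dmrt1 in the P fraction at PD 52, where it was higher in MFN2 cKO. It lies at chr5:75574916-75656722 on the plus strand (ENSMUSG00000005672, 21 exons in its longest transcript). At PD 24 Kit had 3.76 FPKM in MFN2 WT and 4.91 in MFN2 cKO of P, and 6.91 and 8.57 in L/Z. At PD 52 it was 3.19 and 4.15 in P, and 5.30 and 2.07 in L/Z. MFN2 cKO was higher in 3 pairs, by 0.31, 0.27 and 0.30, and lower in the L/Z pair at PD 52, by −1.04 (−1.18 to −0.89), which left 39.1% of the MFN2 WT level. The fitted effect at PD 52, −0.37 ± 0.32 (SE, n = 2 pairs, limma adjusted p = 0.761), averages 2 pairs of opposite sign. Mast cells also carry KIT. Their 4 markers summed to 0.0411 to 0.513 FPKM, with Mcpt4 listed at 0 in 7 of the 8 libraries, so the defining markers of that cell type were at or near 0. No other cell type was examined as a source of Kit. Leydig cell sums were higher in MFN2 cKO in each pair, and their part in the Kit values was not tested.

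The 12 genes of the KIT ligand and signal relay were all tested, and 0 were called between genotypes at PD 24, at PD 52 or over the 4 pairs, by limma or voom, nor did any have an unadjusted p under 0.05 there. Between stages 3 of 12 were called by limma, all higher in P, against 28.4% of all genes. These were Kitl, the ligand, by 0.76 (limma adjusted p = 0.0258), Pik3ca, the catalytic subunit of the lipid kinase, by 0.57 (adjusted p = 0.0175), and Akt2, the kinase downstream of it, by 0.53 (adjusted p = 0.0285). Kitl, 1 of 12 called between ages against 17.3% of all genes, was lower at PD 52 by −1.10 (adjusted p = 0.02001). Sertoli cell markers, from the cell type that makes the ligand, were called higher in P for 10 of 10 and called lower at PD 52 for 7 of 10, and their part in the Kitl differences was not tested.

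Stra8 was lower in MFN2 cKO in all 4 pairs and most clearly at PD 52. The gene lies at chr6:34920163-34939344 on the plus strand (ENSMUSG00000029848, 10 exons in its longest transcript). Its window (RefSeq, GRCm38.p6, chr6:34920698-34920997, plus strand) is shown for the retinoic acid and DMRT elements searched in it. Capitals mark AGGTCA, which retinoic acid receptors bind in pairs, and ACAATGT, a core of the DMRT motif.

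Stra8: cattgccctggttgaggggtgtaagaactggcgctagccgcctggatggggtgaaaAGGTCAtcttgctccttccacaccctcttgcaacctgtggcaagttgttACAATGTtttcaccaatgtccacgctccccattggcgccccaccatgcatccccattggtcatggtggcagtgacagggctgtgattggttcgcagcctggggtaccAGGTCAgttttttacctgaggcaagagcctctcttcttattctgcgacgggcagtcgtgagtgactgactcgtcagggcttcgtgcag

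AGGTCA began at −194 and −38, and ACAATGT at −145. At least 1 AGGTCA was present in 16.2% of all windows and 2 or more in 1.82%, and ACAATGT in 2.95%, counting both strands. The window held no CANNTG. The windows of Meioc, Kit and Dmrtb1 held no CACGTG. They also held no AGGTCA and no ACAATGT, and the STRA8 and MEIOSIN element had no match in them.

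At PD 24 Stra8 had an FPKM of 14.6 in MFN2 WT and 12.8 in MFN2 cKO of P, and of 28.4 and 23.8 in L/Z. At PD 52 it was 16.5 and 7.34 in P, and 15.7 and 5.50 in L/Z. The 2 MFN2 cKO libraries at PD 52 were the lowest, at 44.4% and 35.1% of MFN2 WT, and the L/Z libraries at PD 24 were the highest. The changes at PD 24 were small, −0.18 (−0.35 to −0.01) in P and −0.24 (−0.38 to −0.11) in L/Z, and those at PD 52 were −1.07 (−1.29 to −0.85) and −1.36 (−1.60 to −1.12). The fitted effect at PD 52 was −1.22 ± 0.20 (SE, n = 2 pairs, limma adjusted p = 0.146), and −1.30 with voom (adjusted p = 0.0284). Its difference from PD 24 was −1.004 ± 0.28 (n = 4 pairs, adjusted p = 0.240).

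Retinoic acid supply was followed through 18 genes, of which 14 were tested. Aldh1a1, which makes retinoic acid, rose in MFN2 cKO over the 4 pairs by 1.42 (limma adjusted p = 0.0462) and at PD 24 by 1.43 (adjusted p = 0.0484), and it was the 1 gene of the list that limma called between genotypes. Its FPKM in MFN2 WT and MFN2 cKO was 25.5 and 59.0 in P and 26.7 and 88.2 in L/Z at PD 24, and 17.6 and 44.0, then 5.39 and 17.6, at PD 52. It was higher in MFN2 cKO in each pair, as were the Leydig cell and macrophage sums given above, whose part in it was not tested. Both calls were lost when any 1 of the 4 pairs was left out, and with voom Aldh1a1 was also called at PD 52. Voom called 1 other gene of the list, Crabp1, which encodes a retinoic acid binding protein and is named after its values were seen. It was lower in MFN2 cKO at PD 52 by −1.68 (voom adjusted p = 0.0188, limma adjusted p = 0.0955), with a difference of −2.43 from PD 24 (voom adjusted p = 0.00572, limma adjusted p = 0.0707). Between stages limma called 4 of the 14, against 28.4% of all genes. Of these, Cyp26b1, which degrades retinoic acid, was called lower in P by −2.21 (adjusted p = 0.00156) and the receptor Rxra by −0.81 (adjusted p = 0.0115). Cyp26a1, another degrading enzyme, was called higher in P by 0.69 (adjusted p = 0.0374). Cyp26b1 was also called lower at PD 52, by −0.94 (adjusted p = 0.0250). Peritubular myoid cell markers were called lower in P for 4 of 4 tested, against 28.4% of all genes called between stages. They were called lower at PD 52 for 2 of 4, against 17.3% of all genes called between ages. Their part in the Cyp26b1 differences was not tested.

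**Figure D3:**
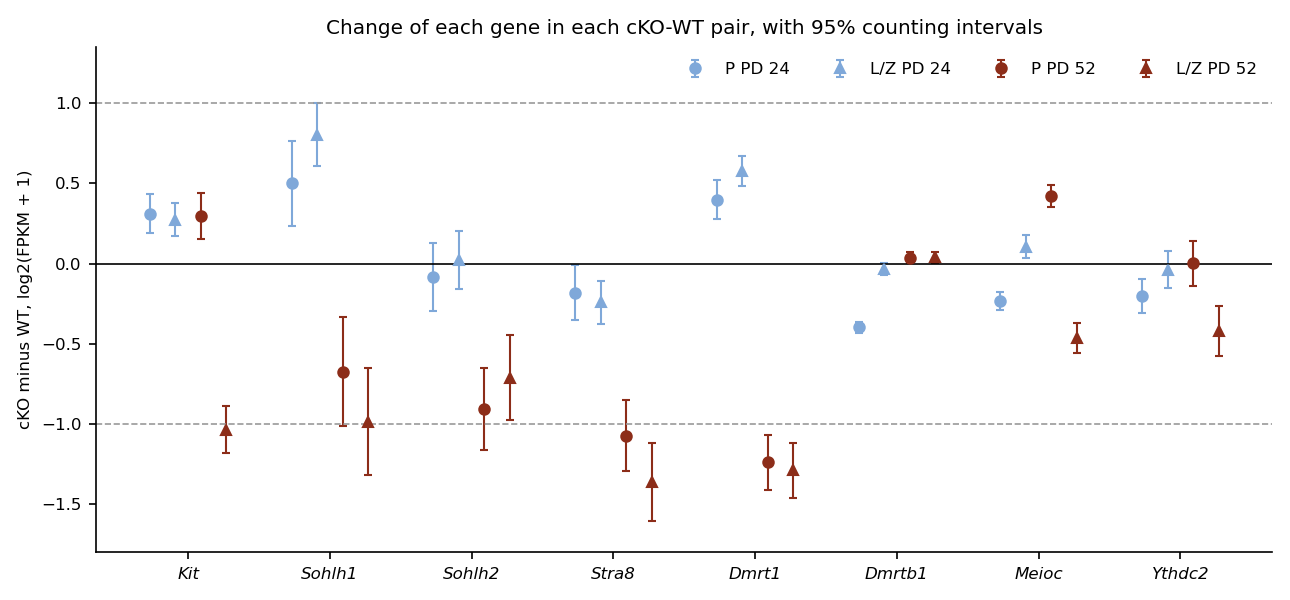
MFN2 cKO minus MFN2 WT on the log2(FPKM + 1) scale for each gene in each of the 4 pairs, with 95% counting intervals as bars. Dmrt1 and Sohlh1 lie above 0 in both pairs at PD 24 and below 0 in both at PD 52, and Kit at PD 52 lies on opposite sides of 0 in P and L/Z.

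Meioc and Ythdc2 showed no common direction between genotypes. Meioc, which lies at chr11:102663716-102682237 on the plus strand (ENSMUSG00000051455, 8 exons), had an FPKM at PD 24 of 60.04 in MFN2 WT and 51.0 in MFN2 cKO of P, and of 34.4 and 37.1 in L/Z. At PD 52 it was 38.9 and 52.4 in P, and 30.6 and 21.9 in L/Z. All 4 P libraries were above all 4 L/Z libraries. Its genotype changes went both ways, at −0.23 (−0.29 to −0.18) and 0.11 (0.03 to 0.18) in P and L/Z at PD 24 and at 0.42 (0.35 to 0.49) and −0.46 (−0.56 to −0.37) at PD 52. All 4 were outside counting error, and at each age P and L/Z went opposite ways.

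Ythdc2, an RNA helicase with a domain that reads methylated adenosine, lies on the plus strand of chromosome 18 (ENSMUSG00000034653, 30 exons in its longest transcript). Ythdc2 had 6.73 FPKM at PD 24 in MFN2 WT and 5.72 in MFN2 cKO of P, and 5.395 and 5.23 in L/Z. At PD 52 it was 3.95 and 3.96 in P, and 3.30 and 2.21 in L/Z. All 4 libraries at PD 52 were below all 4 at PD 24. Between genotypes the change was −0.20 (−0.31 to −0.10) in P at PD 24 and −0.42 (−0.58 to −0.26) in L/Z at PD 52, and the intervals of the other 2 pairs held 0. Of its 50-base transcript windows, 71 of 8827 were shared with another gene, and none were for the other 7 genes.

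The partners of these genes in meiotic entry and RNA control were followed through 12 genes, of which 11 were tested. By limma 0 were called between genotypes, and voom called 1, Rhox13, at PD 52. An unadjusted p under 0.05 was found for 1 of 11 over the 4 pairs, 1 at PD 24 and 4 at PD 52. Over all genes the shares were 6.93%, 12.3% and 9.59%, in that order. The 4 at PD 52 are named here after their values were seen. Rhox13 differed by −1.60, Tex19.1 by −1.04, Gm4969, which encodes MEIOSIN, by −0.96, and Dazl, an RNA-binding protein that germ cells need to enter meiosis, by −0.86 (limma adjusted p from 0.189 for Tex19.1 to 0.339 for Gm4969). Gm4969 was lower in MFN2 cKO in all 4 pairs, as Stra8 was. Its FPKM was 7.55 and 5.34, then 19.8 and 9.25, in the P and L/Z pairs at PD 24, and 5.91 and 3.61, then 10.5 and 3.56, at PD 52. Over the 4 pairs the difference was −0.84 ± 0.19 (SE, n = 4 pairs, limma adjusted p = 0.287). Between stages 2 of 11 were called, against 28.4% of all genes, Rbm46, a partner of MEIOC and YTHDC2, higher in P by 1.11 (adjusted p = 0.0133) and the exonuclease gene Xrn2 lower by −0.47 (adjusted p = 0.0474).

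The genes that cells switch on at meiotic entry, 19 of 20 tested, had a median effect of −0.37 at PD 52, against −0.00 over all genes, with 15 of 19 below 0 and 0 called by limma or voom. The 15 mitotic cell cycle genes had a median of −0.32 at PD 52 and of 0.21 at PD 24, with 0 called by limma at either age and 1 by voom at PD 52, Ccnd1. At an unadjusted p under 0.05, 5 meiotic and 6 mitotic genes passed at PD 52, and 0 and 1 at PD 24. Over all genes 9.59% passed at PD 52 and 12.3% at PD 24. Between stages 7 of the 19 meiotic genes were called higher and 5 lower in P, and 3 and 2 of the 15 mitotic genes, against 28.4% of all genes. Spo11, the nuclease that makes meiotic breaks, was higher by 1.22 (limma adjusted p = 0.00502) and Hormad1, an axis protein, by 1.09 (adjusted p = 0.0124). Tex15 was lower by −1.14 (adjusted p = 0.00637) and Syce2, a synaptonemal complex protein, by −0.92 (adjusted p = 0.0278), and Syce2 was called higher at PD 52 by 0.99 (adjusted p = 0.0205). Of the mitotic genes, Ccnd3, a D-type cyclin, was called lower in P by −1.07 (adjusted p = 0.00395), while Cdk1, Aurkb and Ccne2 were called higher by 0.96 (adjusted p = 0.00622), 0.81 (adjusted p = 0.0151) and 0.69 (adjusted p = 0.0421). Ccnd3 was called higher at PD 52 by 0.96 (adjusted p = 0.0150). It was the 1 mitotic gene called higher between ages, and 2 of 15 were called lower, against 17.3% of all genes. The mitotic list had a median of −0.55 between ages, with 12 of 15 below 0. Of the 19 meiotic genes 2 were called higher and 1 lower at PD 52.

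The question of what loss of MFN2 changed in these genes was asked over all pairs, at each age, and between ages, with p-values adjusted over 21175 genes. Over the 4 pairs all 8 genes had an effect below 0, as 57.7% of all genes had, from −0.71 for Stra8 (limma adjusted p = 0.601) to −0.04 for Kit, with a median of −0.13 against −0.04 over all genes. The sign turned for Kit, Sohlh1, Dmrtb1 and Meioc when 1 pair was left out, and for Sohlh1 also with voom. None of the 8 was called, by limma or by voom, where 0.137% of all genes were, and 1 of 8 had an unadjusted p under 0.05 where 6.93% of all genes had. In 0 of the 8 did the MFN2 cKO range lie apart from the MFN2 WT range, against 0.911% of all genes.

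At PD 24 the median of the 8 genes was −0.05, against −0.01 over all genes. None was called by limma or voom, where 1.46% of all genes were called by limma, and 2 of 8, Sohlh1 and Dmrt1, had an unadjusted p under 0.05, as 12.3% of all genes had. No pair at PD 24 had a member changed at least 2-fold in either direction, against 8.08% of genes in P and 10.5% in L/Z.

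At PD 52 the median was −0.59, against −0.00 over all genes. None of the 8 was called by limma, where 0.0236% of all genes were, and 4 of 8 had an unadjusted p under 0.05, against 9.59% of all genes. These 4, Dmrt1, Stra8, Sohlh1 and Sohlh2, were also those lower in both pairs, as 24.2% of all genes were. With voom 2 of 8, Dmrt1 and Stra8, were called, against 1.47% of all genes. With protein-coding genes alone in the fit the same 2 were called, Dmrt1 with an adjusted p of 0.0406 and Stra8 with 0.0450, against 0.797% of genes. At least 2-fold lower in MFN2 cKO were 2 of 8 in P, Dmrt1 and Stra8, against 5.78% of genes, and 3 of 8 in L/Z, Kit, Stra8 and Dmrt1, against 3.12%. The L/Z pair alone, without the P pair whose fall in Mfn2 FPKM was smallest, gave −1.29 for Dmrt1, −1.36 for Stra8, −0.99 for Sohlh1 and −0.71 for Sohlh2.

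Markers of cell types moved beside these values. The 7 tested leptotene and zygotene markers were all below 0 in MFN2 cKO at PD 52, with a median of −0.70. Among the 7, Prdm9, Dmc1, Spo11, Rec114 and Meiob were also in the list of meiotic genes above, so the counts of these lists overlap. Of the 7 markers 0 were called by limma and 1 by voom, and 5 had an unadjusted p under 0.05, against 9.59% of all genes. The list's summed FPKM went from 261 in MFN2 WT to 110 in MFN2 cKO of P and from 105 to 46.7 in L/Z, most of it Tex101. The undifferentiated spermatogonia list summed to 33.0 and 43.1 in P and 31.5 and 45.7 in L/Z at PD 24, and to 29.4 and 27.9, then 29.3 and 24.2, at PD 52. All 10 tested markers of that list were above 0 in MFN2 cKO at PD 24, with 0 called by limma and 1 by voom. At an unadjusted p under 0.05 there were 3, against 12.3% of all genes. At PD 52, 6 of the 10 were above 0 and 4 below, with a median of 0.15 and 0 called by limma or voom, although the sums were lower. The 10 spermatid markers summed to 4484 in MFN2 WT and 1982 in MFN2 cKO of P at PD 52, and to 9985 and 18858 in L/Z, opposite ways in the 2 fractions. Sertoli cell markers at PD 52 summed to 538 in MFN2 WT and 280 in MFN2 cKO of P, and to 22.1 and 64.7 in L/Z. Of these 10 markers 0 were called between genotypes at PD 52 by limma or voom. The part of these cell types in the changes of Dmrt1, Sohlh1, Sohlh2, Stra8 and Kit was not tested.

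The effect of MFN2 cKO at PD 52 minus that at PD 24 had a median of −0.72 over the 8 genes, against 0.02 over all genes. None was called by limma, where 0.0142% of all genes were, and 4 of 8, Dmrt1, Sohlh1, Stra8 and Sohlh2, had an unadjusted p under 0.05, against 12.5%. With voom 2 of 8, Dmrt1 and Sohlh1, were called, against 3.38% of genes, and with protein-coding genes alone 1 of 8, Dmrt1 (adjusted p = 0.0312), against 1.45%. Higher in MFN2 cKO in both pairs at PD 24 and lower in both at PD 52 were Dmrt1 and Sohlh1, 2 of 8, against 8.52% of all genes. Dmrtb1 alone of the 8 had the reverse order of signs, as 8.34% of all genes had.

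**Figure D4:**
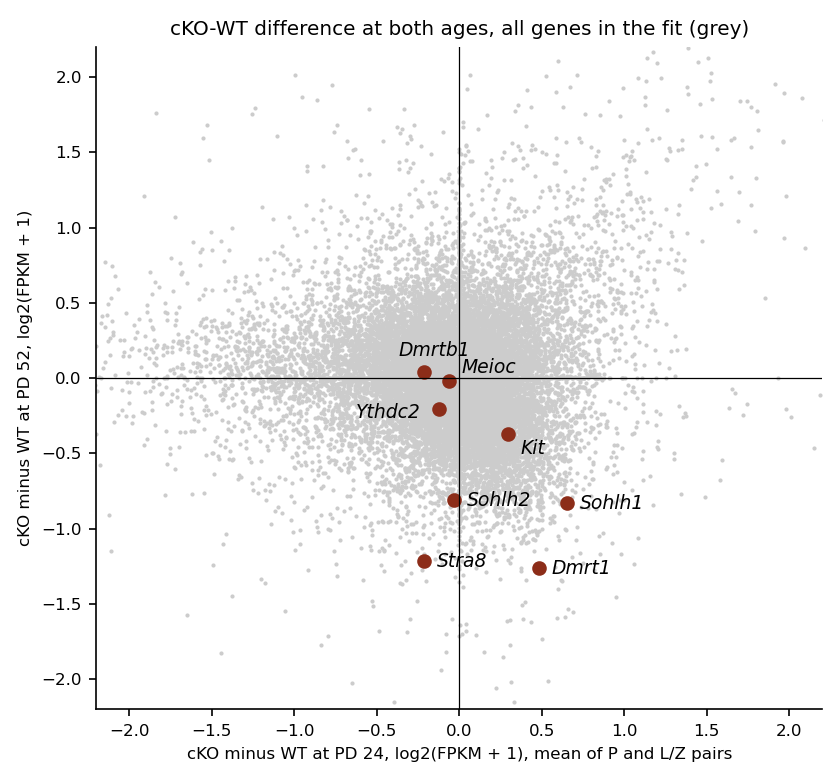
MFN2 cKO minus MFN2 WT at PD 24 (horizontal) and at PD 52 (vertical), each the mean of the P and L/Z pairs on the log2(FPKM + 1) scale, with the 8 genes named and all fitted genes in grey. Dmrt1 (0.49 and −1.26) and Sohlh1 (0.65 and −0.83) lie to the lower right, and 151 of the 21175 genes fall outside the plotted square.

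Between stages, P and L/Z spermatocytes differed in 28.4% of all genes, and 1 of the 8, Meioc, was called. It was higher in P by 0.70 ± 0.19 (SE, n = 4 pairs, limma adjusted p = 0.0318), in 4 of 4 pairs and with ranges that did not overlap, as was so for 15.7% of all genes. Leaving out the WT PD 24, cKO PD 24 or cKO PD 52 pair of P and L/Z raised its adjusted p to 0.145, 0.0701 and 0.120. Without the WT PD 24 or the cKO PD 52 pair 0 genes of the whole table were called between stages, so every stage call given here was lost without either of them. The next by adjusted p was Sohlh1, at −0.59 (adjusted p = 0.0820). With voom 3 of 8 were called, Meioc, Sohlh1 and Dmrt1, against 36.3% of genes.

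At PD 24, Kit, Sohlh1, Sohlh2, Stra8 and Dmrt1 were lower in P than in L/Z in both genotypes, by −0.57 to −1.18. At PD 52 the same 5 genes differed by −0.59 to 0.19 in MFN2 WT and by −0.01 to 0.75 in MFN2 cKO. In MFN2 WT at PD 52, Sohlh2 (0.19), Stra8 (0.07) and Dmrt1 (−0.06) had counting intervals that held 0. Only Kit (−0.59) and Sohlh1 (−0.30) kept the PD 24 order of the fractions there. In MFN2 cKO at PD 52 that order was not seen outside counting error, and Kit was 0.75 higher in P. Whether the stage difference itself differed between the ages was not tested. Over the 4 pairs, undifferentiated spermatogonia markers were called lower in P for 6 of 10 tested and higher for 1. Spermatid markers were called lower in P for 9 of 10 and macrophage markers for 6 of 6, where 28.4% of all genes were called between stages. The part of these cell types in the stage differences of the 8 genes was not tested.

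Between ages 17.3% of all genes were called, and 1 of the 8, Ythdc2. It was lower at PD 52 by −0.65 ± 0.15 (SE, n = 4 pairs, limma adjusted p = 0.0342), and its levels at PD 52 were 58.7% and 69.2% of those at PD 24 in P of MFN2 WT and MFN2 cKO and 61.1% and 42.3% in L/Z. The call was lost when any 1 of the 4 pairs was left out, with adjusted p-values from 0.0580 to 0.153, and 0 genes of the whole table were called between ages without the WT L/Z, the cKO L/Z or the cKO P pair. Ranges at the 2 ages did not overlap for Ythdc2 and for Dmrtb1, 2 of 8, against 13.4% of genes. Dmrtb1 was higher at PD 52 by 0.33 ± 0.12 (adjusted p = 0.0976).

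The age differences of the other 6 genes ran from −0.98 for Dmrt1 (limma adjusted p = 0.137) to −0.37 for Meioc (adjusted p = 0.176). Dmrt1 at PD 52 was 122% of its PD 24 level in P and 70.6% in L/Z of MFN2 WT, and 36.2% and 18.0% in MFN2 cKO. Sohlh1 was at 117% and 75.2% in MFN2 WT and at 45.4% and 18.8% in MFN2 cKO, and Stra8 at 113% and 55.3% and at 57.4% and 23.1%. Sohlh2 was at 122% and 67.3% in MFN2 WT and at 61.5% and 36.4% in MFN2 cKO. In these 4 genes the MFN2 cKO share was the smaller in both fractions. Kit was at 84.8% in MFN2 WT and 84.5% in MFN2 cKO of P, and at 76.7% and 24.2% in L/Z. Meioc was at 64.8% and 103% in P and at 89.0% and 59.1% in L/Z. The matching differences in the MFN2 cKO effect were −0.66 for Kit (adjusted p = 0.609) and 0.04 for Meioc (adjusted p = 0.976). The genotype and age comparisons share their libraries. Spermatid markers were called higher at PD 52 for 9 of 10 and pachytene markers for 5 of 9, where 17.3% of all genes were called between ages. The part of these cell types in the age differences of the 8 genes was not tested.

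**Figure D5:**
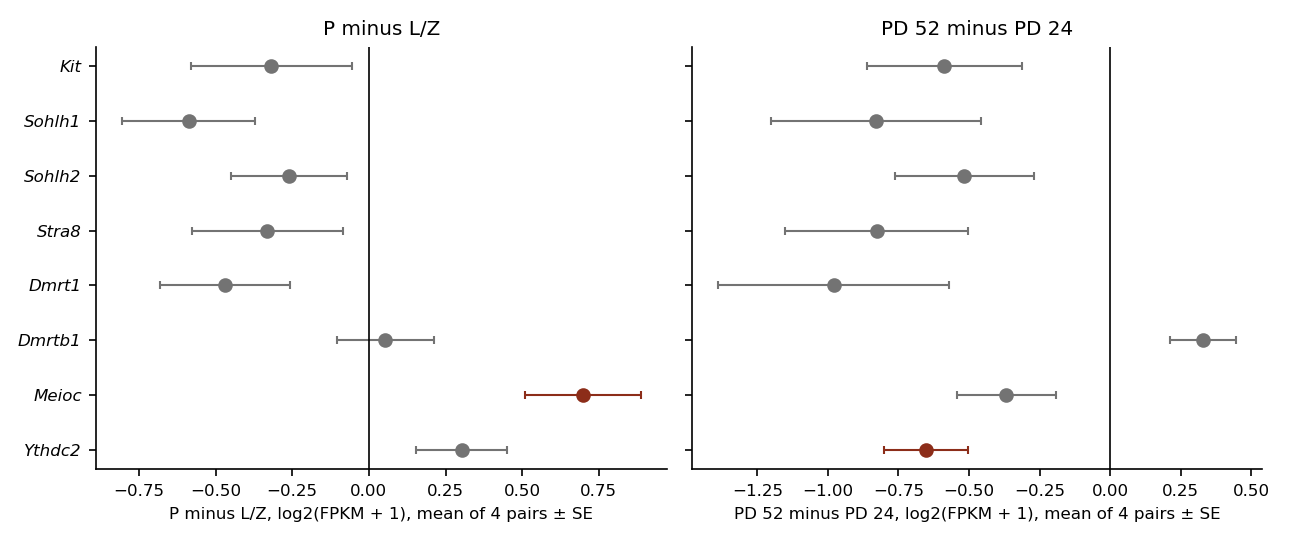
Mean difference ± SE over 4 pairs, on the log2(FPKM + 1) scale, of each gene between P and L/Z and between PD 52 and PD 24. Meioc (0.70, higher in P) and Ythdc2 (−0.65, lower at PD 52) are the 2 that passed the adjusted threshold.

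The 8-library profiles were compared with those of 14058 protein-coding genes by the root mean square difference of their centred log2(FPKM + 1), which is 0 for an identical profile. The profile closest to Dmrt1 was that of Luzp4, at 0.15, then those of Mcm6 at 0.17 and Ctps at 0.18, and Sohlh1 was the 9th closest, at 0.20. Sohlh1 was closest to Ctps at 0.09, Luzp4 at 0.10 and Mcm4 at 0.14. Luzp4 was a low gene, from 0.0970 to 4.53 FPKM. Mcm4, Mcm5 and Mcm6 encode subunits of the replicative helicase.

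Stra8 was closest to Cpeb1 at 0.15, Mcm5 at 0.21 and Prss50 at 0.22, with Sohlh2 16th and Dmrt1 27th. Sohlh2 was closest to Fance, at 0.10, Grk2 and Haus8, both at 0.11. Kit was closest to Prr23a3, Dtwd2 and Rundc3b at 0.12 to 0.15. Meioc was closest to Pik3cb at 0.06, Zfp800 at 0.07 and Abca5 at 0.09, and Ythdc2 to Appl1, Clock and Spidr, all at 0.06. The nearest of the other 7 genes was Sohlh1 for Kit, at 0.34 and 820th, while Meioc and Ythdc2 were nearest to one another at 0.27, 1270th and 1843rd. Dmrtb1 spanned less than 1 on the log2 scale over the libraries, and its nearest profiles are not named. All these profiles come from the same 8 libraries and share their cell mixture.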

How the data were processed

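Spermatocyte RNA was sequenced in 8 libraries, 1 for each stage, genotype and age. The authors prepared libraries with the NEBNext Ultra kit, which does not mark strand, sequenced paired ends, and computed FPKM with Novomagic. The submitters' processing notes name CASAVA 1.4, Bowtie 0.12.2 and the builds mm8 and mm9, while the deposited coordinates and exon lengths of the 8 genes equal those of GENCODE on GRCm38. The deposited FPKM values are unlogged, and the deposited gene lengths and positions were used as given. FPKM times length gave whole reads for 100% of values, within 0.01 of a read, in each library. The authors state DESeq2 for their own tests, which was not used here.

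Differences were taken on log2(FPKM + 1) for the 21175 genes that reached an FPKM over 1 in some library. The fits used limma 3.58.1 in R 4.3.3 with an intensity trend, pairs of libraries as blocks and Benjamini-Hochberg adjustment over all genes, with a threshold of 0.05, two-sided. An exact permutation over 4 pairs cannot go below p = 0.125. Counting intervals (95%) are exact binomial intervals on the recovered reads. Alternatives were a pseudocount of 0.1, no filter, a fit limited to protein-coding genes, a further scaling by median of ratios, voom on recovered reads, no pair block, and leaving out each pair. The further scaling used genes above FPKM 1 in all libraries, a choice made after the data were seen. Code was tested on simulated data.

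Named genes were, by rule, the 8 genes, Mfn2, called genes of 5 lists (at most 4 a list by size of effect), and the 3 nearest profiles of each gene that spanned at least 1 on the log2 scale. Some further list genes and cell type markers are named outside this rule. The genes and lists were chosen with earlier results of these data known. Promoters and motif positions came from RefSeq windows of 300 bases, present for 6 of the 8 genes. Positions count from 0 at the start base.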

Additional observations from a re-analysis of the deposited data

Results flagged for a closer look

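In 3 genes the differences had one sign in both pairs at PD 24 and the other in both pairs at PD 52. Of all genes, 8.52% had the order of signs of Dmrt1 and Sohlh1, and 8.34% that of Dmrtb1, whose L/Z change at PD 24, −0.03 (−0.07 to 0.00), held 0 in its counting interval. The effect of MFN2 cKO at PD 52 minus that at PD 24 was −1.75 for Dmrt1 (limma adjusted p = 0.105), −1.48 for Sohlh1 (adjusted p = 0.134) and 0.25 for Dmrtb1 (adjusted p = 0.788). The test of the difference passed the threshold in none of the 3 with limma. No group held enough libraries for a search for outlying samples.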

How the results depend on the processing

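Of the 8 genes, 0 were called between genotypes in the 4-pair and PD 24 fits under each alternative. At PD 52, where 0 were called, protein-coding genes only and voom each gave 2, and for the difference between ages they gave 1 and 2. Between stages the 1 call became 0 without the filter and 3 with voom, and 0 to 1 when a pair was left out. Between ages it became 0 without the filter, and 0 to 1 when a pair was left out, the 1 being Dmrtb1 (adjusted p = 0.0381) without the WT P pair. At 1.5-fold, the counts of single pairs went from 0 to 1 in L/Z at PD 24, from 2 to 4 in P at PD 52 and from 3 to 5 in L/Z at PD 52. At 2-fold, further scaling left 1 in P at PD 52, and a pseudocount of 0.1 gave 3 in P and 4 in L/Z at PD 52. Adjusted p-values at PD 52 ranged over the settings from 0.0116 to 0.884 for Dmrt1 and from 0.0284 to 0.884 for Stra8. Of 48 effects of the 8 genes, 13 changed sign under some setting, and 0 of these were called. With 1 pair left out, the difference between ages ran from −1.33 to 0.0049 for Kit and from −0.40 to 0.48 for Meioc.

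Calls over all genes moved further. At PD 52 the 5 calls became 312 with voom, 112 with protein-coding genes only, 11 with no pair block, 3 with further scaling, 2 with a pseudocount of 0.1 and 0 without the filter. The 3 calls for the difference between ages became 716, 204, 1, 0, 74 and 0 in that order. At PD 24 the 310 became 1153 with voom, 535 with protein-coding genes only, 586 with a pseudocount of 0.1, 154 with no pair block and 0 without the filter, and over 4 pairs the 29 became 135, 71, 7, 3 and 0. Without the filter the 6013 stage calls became 3010 and the 3669 age calls 791. Leaving out any 1 pair gave 0 calls in the genotype fits, 0 to 5000 between stages and 0 to 3937 between ages. The causes were not tested, except that leaving out a pair lowers the number of libraries. The labels give no replicate numbers, and the blocks of the fits are pairs of libraries alike in 2 of stage, age and genotype.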

Other observations

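Read depth behind each gene differed widely. Dmrtb1 had 11693 to 17091 reads a library, Meioc 1479 to 5591, Dmrt1 315 to 2161, Kit 270 to 1355, Ythdc2 287 to 1205, Stra8 145 to 966, Sohlh2 121 to 426 and Sohlh1 78 to 504. Nanos2, a spermatogonial stem cell factor among the entry partners, was at 0.203 FPKM at most and listed at 0 in 4 of the 8 libraries. Crabp1 had FPKM values of 9.83, 14.6, 22.6 and 41.4 at PD 24 in P WT, P cKO, L/Z WT and L/Z cKO and of 17.8, 4.98, 17.5 and 5.71 at PD 52, higher in MFN2 cKO in both pairs at PD 24 and lower in both at PD 52. It was named after its values were seen.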
